A study of Mus musculus with 4 samples.

Results

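The synonymous coding substitutions of 2 mouse cancer cell lines are described here, that is, the single-base changes read from RNA that alter a codon and leave its amino acid as it is. They were taken from 1 list of sequence variants per line by rule: reference and alternative allele of 1 base each, and a first annotated effect of synonymous coding change. LM8 had 322 of them among 5445 listed variants, of which 2802 were substitutions. MBT2 had 333 among 6361 variants and 3169 substitutions. Over both lists there were 639 distinct synonymous changes among 10545 distinct variants, and 16 of them stood in both lists with the same position and alleles. These 16 are called shared, and the other 306 in LM8 and 317 in MBT2 are called private. The rule used the annotation and no read counts.

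MBT2 is a bladder cancer line and LM8 an osteosarcoma line, and both are syngeneic with C3H/HeN mice. Both were grown in culture with serum and antibiotics, the bladder line in RPMI-1640 and the bone line in MEM buffered with HEPES, and received no treatment. RNA was extracted in duplicate, giving 2 poly(A)-selected directional libraries per line. The MBT2 libraries are titled MBT2#63 and described with P+22, the LM8 libraries are titled LM8 and described with P+7, and the labels do not say what these marks mean. Each line stands for itself and not for its tumour type. Whether the duplicates were separate cultures is not stated, so p-values and spreads between libraries may be technical. No normal C3H/HeN sample was called beside the tumour lines, so alleles of the strain and changes acquired by the lines cannot be told apart.

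The genetic code is degenerate: most amino acids have several codons, and these differ mainly in the last base. A synonymous change therefore usually falls on the last base of a codon and leaves the protein chain as it was. Such changes are the usual yardstick for missense changes, which replace an amino acid, and they also show the bases around which a mutational or technical process acts, with less constraint from the protein. In poly(A) RNA only expressed genes are read, and an RNA read can differ from the genome through editing of the transcript as well as through a change in the DNA.

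Sequences around 4 kinds of synonymous site are printed first because the results below turn on them. Each is 25 bases of the coding strand, 5′ to 3′, from GENCODE release M21 transcripts of build GRCm38, matched by transcript identifier and codon, with the reference base that changes in capitals. Matches were found for 316 of 322 LM8 members and 329 of 333 MBT2 members. The positions given are those of the lists, in GRCm39. The first set holds G>A changes (G replaced by A on the coding strand) directly before a run of A, seen at low fraction at a median of more than 5 bases from the read end. The first 4 are shared by the lines and the last 2 are private to MBT2. The second set holds low-fraction changes near the end of reads, 3 shared and 2 private to LM8. The third set holds changes at high fraction in MBT2 or, for Htatsf1, in LM8. The last set holds Azin1 and Tuba1a, shared sites to which the text returns.
Mki67 glycine 1388: ttcaatacttggGaaaaaaacaaag
Mki67 glycine 2215: ttcaacacttggGaaaaaaacaaag
Ncor1 glutamate 320: ggaagcgtgggaGaaaaaagtggac
Rpf2 glycine 297: agacgaccagggGaaaaaatcaaag
Vcp arginine 424: gcaggccatccgGaaaaaaatggac
Appl1 arginine 171: atatacttccagGaaaaaacaacac
Rbm39 alanine 364: ggcaagacttgcGgagggtaccggt
Mcm4 arginine 827: tgaggatattcgGggacagtctgac
Trpc4ap arginine 152: catctctatccgGggacagaaacta
Supt6 glycine 1437: ggactgtagtggTggggaccgaaag
Canx alanine 573: caagcctaaagcAgaggaggatgaa
Zyx proline 290: aatggtgcctccGgatgctccttct
Jak2 alanine 276: aaaagaatctgcAagaggtccttca
Cenpf valine 2451: aaacgagacagtGgtttccttgtgc
Eif3b serine 201: caagatcttctcCaagtttgggaaa
Htatsf1 glycine 559: atctcaagatggCtctgacaaagaa
Azin1 glutamate 366: tcaaattgtggaAagctgtcttctt
Tuba1a threonine 41: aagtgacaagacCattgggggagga

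The depth behind each member was the sum of reference and alternative reads over both libraries of a line, with a median over private members of 98 reads for LM8 (48.5 and 49 in its libraries) and 139 for MBT2 (67 and 72). The alternative-allele fraction was alternative over reference plus alternative reads, summed over both libraries. At no synonymous site did the duplicates differ by Fisher's exact test with Benjamini-Hochberg adjustment over the whole list, which called 0% of either list. Low-fraction members had a median of 5 alternative reads in either line, too few for a call after this adjustment. The absence of calls therefore does not show that the duplicates were equal. Without adjustment, p was under the threshold at 11 of 322 LM8 members (3.42%) and 12 of 333 MBT2 members (3.60%), beside 3.89% and 3.76% of all listed variants. Some low-fraction members had their alternative reads in 1 library only: replicate 1 had none at 30 LM8 and 23 MBT2 members, and replicate 2 had none at 39 and 16. Across members, the fractions of the 2 libraries had a Pearson r of 0.857 (Spearman rho 0.172) for LM8 and 0.972 (0.613) for MBT2, given as a description, since sites are not replicates and most share the same low range.

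**Figure D1:**
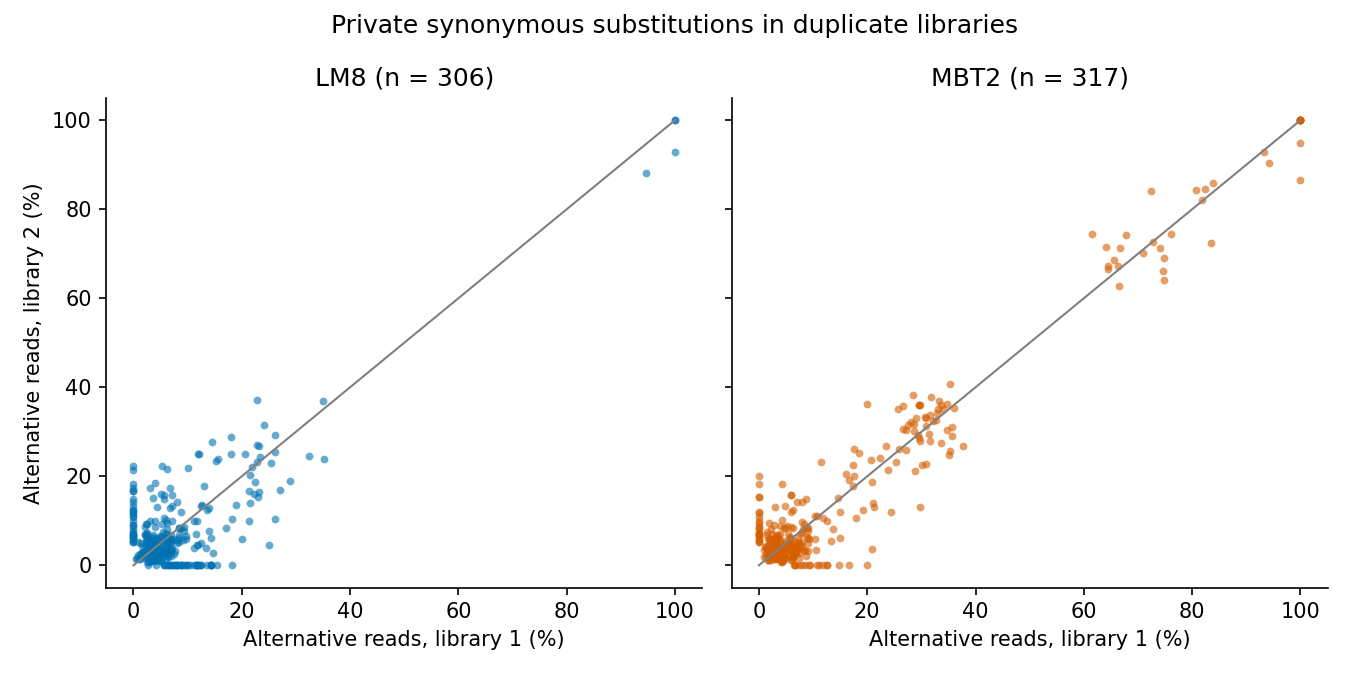
Alternative reads as a percent of reads at each private synonymous site, library 1 on the horizontal and library 2 on the vertical axis, for 306 LM8 and 317 MBT2 sites; the line marks equal values. MBT2 has 56 sites between 20% and 40% and 18 between 60% and 80%, LM8 has 22 and 0, and low sites scatter along both axes.

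The numbers of private synonymous substitutions were alike in size in the 2 lists, 306 in LM8 in 284 genes and 317 in MBT2 in 308 genes. Their ratio was 0.965 (95% interval 0.822 to 1.13), and the exact binomial test, two-sided, gave p = 0.689. The fractions at which they were seen differed. In LM8 the median fraction was 0.0530 (quartiles 0.0378 and 0.0851) and in MBT2 0.0612 (0.0385 and 0.249). At 20% of reads or more stood 26 of 306 in LM8 (8.50%, exact 95% interval 5.63 to 12.2) and 89 of 317 in MBT2 (28.1%, 23.2 to 33.4). Fisher's exact test, two-sided, gave an odds ratio of 4.20 (2.58 to 7.01) with p = 1.50e-10. Among all private substitutions the shares at that level were 13.8% (LM8) and 24% (MBT2). With 1 list per line, the tests compare these lists and not repeated cultures, and intervals cover counting error only, since amplified reads can be copies of 1 molecule.

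Within MBT2 the fractions stood on either side of an empty range from 40 to 60%, and are counted here in preset bands. Below 10% stood 201 members, from 10 to 20% 27, from 20 to 40% 56, from 60 to 80% 18 and at 80% or more 15, while 0 members lay between 40 and 60%. The band from 20 to 40% had a median of 30.4% (quartiles 27.0 and 32.7), and that from 60 to 80% had a median of 69.7% (67.2 and 72.3). In LM8, 244 members stood below 10%, 36 from 10 to 20%, 22 from 20 to 40% and 4 at 80% or more, with 0 in between. The LM8 band from 20 to 40% had a median of 23.9% (21.8 and 27.4). Among all private substitutions, 3 of 2939 in MBT2 and 1 of 2572 in LM8 lay between 40 and 60%. The gap is thus not read as a result about synonymous changes. A filter on sites scored as germline was applied by the authors before deposit, per the file headers, and its part in the empty band was not tested.

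**Figure D2:**
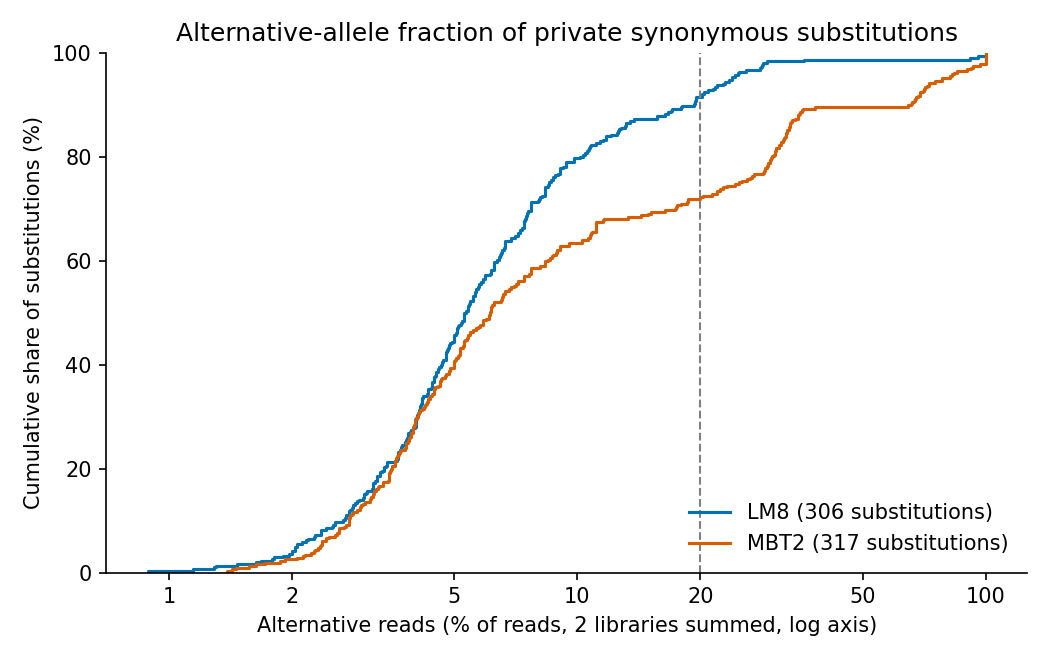
Cumulative share of private synonymous substitutions (percent, vertical) by alternative reads as a percent of reads (log axis), for 306 LM8 and 317 MBT2 substitutions; the dashed line marks 20%. The curves run together at the lowest fractions and part above them, with the MBT2 curve rising in steps around its band medians of 30.4% and 69.7% and flat between 40% and 60%.

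Members next to the limit of 20% show how it cuts. In LM8, Epb41l1, Mtbp and Hjurp stood just below it at 19.4%, 19.5% and 19.6%, and Tnxb, Atg2a and Nepro just above at 20.2%, 20.2% and 20.4%. In MBT2, Fbxl18, Magi3 and Rtkn stood at 18.6% each, and Oasl2, Scrn2 and Mllt6 at 20%, 20.3% and 21.3%.

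The deepest high-fraction members of MBT2 fell into the 2 bands. Eif3b, a subunit of the translation initiation factor that binds the small ribosomal subunit, had a C>T change in the codon of serine 201 (chromosome 5, position 140411153, exon 2) in 22.4% and 24.2% of reads of the libraries, 448 of 1924 reads in all. Ube2c, the ubiquitin-conjugating enzyme of the anaphase-promoting complex, had a change at glycine 19 in 30.7% and 33.4%, 577 of 1798 reads. Mta1, a subunit of the nucleosome remodelling and deacetylase complex, had one at leucine 490 in 36.1% and 35.3% of 612 and 587 reads. These 3 belong to the lower band, while Eef1d and Zyx belong to the upper. Eef1d, an exchange factor of translation elongation, changed at aspartate 393 in 64.4% and 66.5% of reads, 704 of 1075. Zyx, the focal adhesion protein zyxin, changed at proline 290 (chromosome 6, position 42328774, exon 5) in 64.5% and 67.3%, 685 of 1038 reads. Of the other 5 of the 10 deepest, Hnrnpul2, Prrc2a, Psmd11 and Atf5 ranged from 22.7% to 34.7%. The fifth is Eef1a1, elongation factor 1-alpha, at valine 435 with 31.1% of 3675 reads (30.9% and 31.3%), the deepest private member; it is uncertain, since reads of its many processed copies could be placed on it.

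In LM8 the 10 deepest high-fraction members lay between 20.9% and 35.9%, and the highest of them was on the X chromosome. Htatsf1, a splicing and elongation cofactor, had a C>T change in the codon of glycine 559 (chromosome X, position 56111617, exon 10) in 35.0% and 36.9% of reads, 128 of 357. Pola1, the catalytic subunit of DNA polymerase alpha, had a change at glutamate 904, also on the X chromosome, in 22.9% and 27.1% of 166 and 133 reads. Naa15, the auxiliary subunit of an amino-terminal acetyltransferase, had a T>C change in the codon of serine 703 in 22.8% and 23.2% of reads, 106 of 461. The libraries lay farther apart at Zfp131, with 28.9% and 18.9%, and at Rpl5, with 24.2% and 31.6%. No site passed the test between duplicates, which does not show equal fractions. The others were Asap1 (20.9%), Cd109 (24.9%), Vat1 (25.8%), Zfp131 (24.0%), Rpl5 (28.5%), Timm22 (22.0%) and Nsun5 (22.7%). Rpl5 encodes a ribosomal protein with processed copies and is uncertain for that reason.

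At 80% of reads or more stood 4 private members in LM8 and 15 in MBT2, and several were alleles that the caller's resource of known mouse alleles holds. Of the LM8 ones, 2 of 4 were in the resource, and of the MBT2 ones 8 of 15. Below 20% of reads, 12 of 280 in LM8 (4.29%) and 5 of 228 in MBT2 (2.19%) were. Over all fractions, 14 of 306 private synonymous substitutions of LM8 (4.58%, 2.52 to 7.56) and 16 of 317 of MBT2 (5.05%, 2.91 to 8.07) were in the resource, beside 8 of 603 (1.33%, 0.574 to 2.60) and 10 of 721 (1.39%, 0.667 to 2.54) missense ones. Over all private substitutions the shares were 3.50% (2.82 to 4.28) and 3.68% (3.02 to 4.42), whose intervals overlap the synonymous ones, and at 80% of reads or more they were 11.9% and 18.2%. The 4 LM8 sites, named after their values were seen, were Epha8 (100% of 14 reads), Ahrr (100% of 15 reads), Crim1 (96% of reads) and Rpl26 (91.7%). In MBT2, Iqgap1, a scaffold protein of the cortical cytoskeleton chosen likewise, had the alternative base in 80.7% and 84.4% of reads at histidine 1172, 217 reads in all, and is not in the resource.

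Set against missense substitutions, the synonymous ones gave similar ratios in both lines and at both levels of fraction. LM8 had 603 private missense substitutions, 1.97 per synonymous one (1.71 to 2.27), and MBT2 had 721, 2.27 per synonymous one (1.99 to 2.60). At 20% of reads or more the ratio was 2.15 in LM8 (1.33 to 3.57) and 2.43 in MBT2 (1.89 to 3.14), and below 20% it was 1.95 and 2.22. None of the 5 comparisons passed Fisher's exact test with Benjamini-Hochberg adjustment over them. By Fisher's exact test, the odds ratio between fractions was 1.10 in LM8 (0.664 to 1.87, adjusted p = 0.807) and 1.10 in MBT2 (0.811 to 1.49, adjusted p = 0.807). Between lines the same exact test gave 1.15 over all fractions (0.949 to 1.40, adjusted p = 0.640). These intervals also hold differences in either direction, so equal ratios are not shown.

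The number of missense changes that could occur was counted as well, over 1597 coding sequences with a listed missense or synonymous substitution, weighting each of the 12 classes of change as it was observed. Divided by that expectation, the ratio was 0.874 in LM8 (0.760 to 1.01) and 0.934 in MBT2 (0.817 to 1.07). At 20% or more it was 0.816 (0.504 to 1.35) and 0.823 (0.640 to 1.07). All 4 intervals hold 1, the value at which missense and synonymous changes occur as often as the codons allow. The weighting takes every codon as equally read, and expression was not weighted in.

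On the coding strand the synonymous changes were mostly transitions, led by G>A. LM8 had 85 G>A, 71 T>C, 52 C>T and 47 A>G among 306, and MBT2 had 91, 66, 42 and 55 among 317. The 8 other classes had at most 10 each in LM8, led by T>G, and at most 14 in MBT2, led by T>A. G>A made up 27.8% of members in LM8 and 28.7% in MBT2. It also led the private missense substitutions, with 25.7% and 23.2%, so its lead is not read as particular to synonymous changes. Among possible synonymous changes, C>T makes up 15.5%, T>C 12.5%, G>A 12.3% and A>G 9.57%. Of the 12 classes, 0 differed between the lines by Fisher's exact test with adjustment over the classes. Without adjustment 1 did, C>G with 7 in LM8 and 1 in MBT2 (Fisher's exact test, unadjusted p = 0.0349, adjusted p = 0.419).

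**Figure D3:**
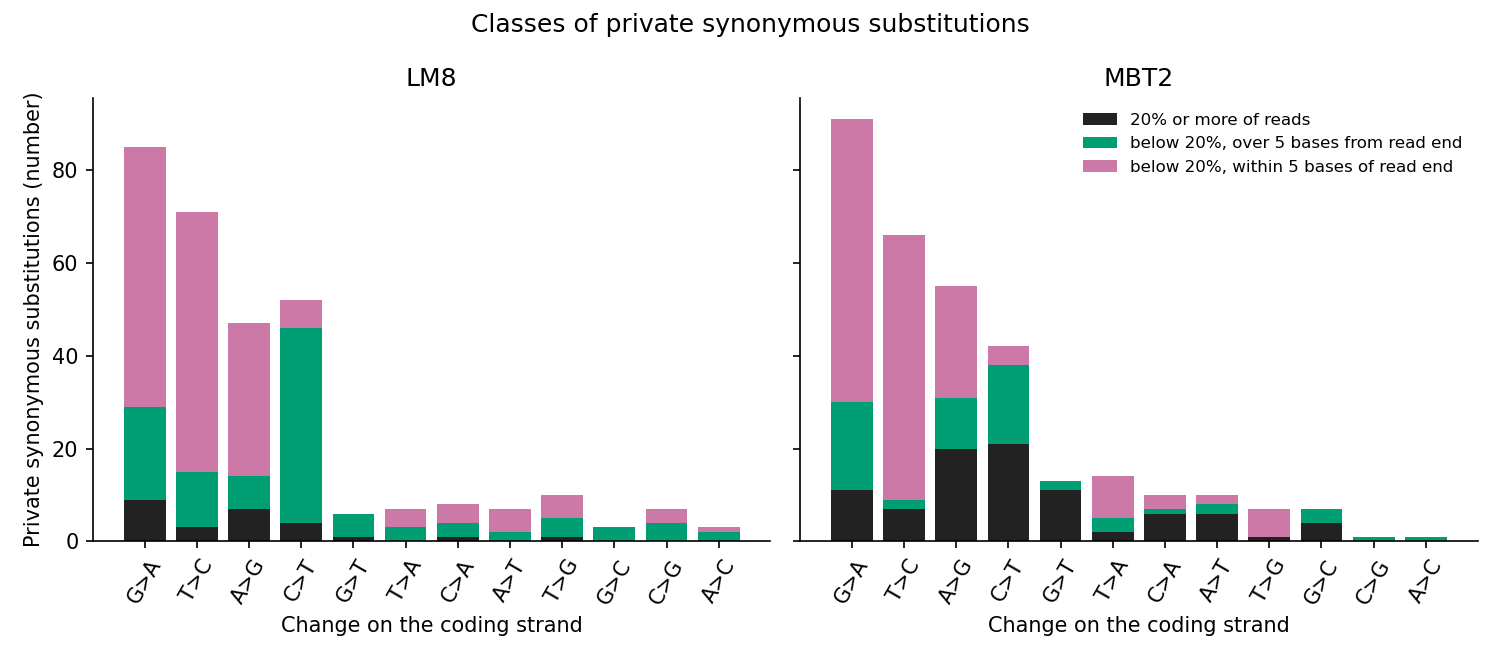
Number of private synonymous substitutions (vertical) in each of 12 classes on the coding strand (horizontal), LM8 left and MBT2 right, stacked by fraction and by distance from the read end. G>A and T>C are mostly made of low-fraction sites within 5 bases of a read end, and C>T mostly of other sites; among high-fraction sites C>T counts 21 and A>G 20 in MBT2, beside 4 and 7 in LM8.

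Within MBT2 the classes did change with the fraction, when each was set against its partner on the other strand. G>A stood against C>T as 11 to 21 at 20% of reads or more and as 80 to 21 below, an odds ratio of 0.138 (0.0519 to 0.358, Fisher's exact test, adjusted p = 3.29e-05 over 6 tests). A>G stood against T>C as 20 to 7 at high and 35 to 59 at low fraction, an odds ratio of 4.82 (1.72 to 14.7, Fisher's exact test, adjusted p = 0.00272). G>T against C>A, 11 to 6 and 2 to 4, did not pass (Fisher's exact test, adjusted p = 0.512). In LM8 none passed Fisher's exact test: G>A against C>T was 9 to 4 and 76 to 48 (adjusted p = 0.919), and A>G against T>C was 7 to 3 and 40 to 68 (odds ratio 3.97, 0.837 to 24.8, adjusted p = 0.173). The difference between the lines in these odds ratios was not tested. Private missense substitutions of MBT2 moved the same way, without a test. Their G>A stood against C>T as 24 to 17 at high and 143 to 30 at low fraction. Their A>G stood against T>C as 45 to 8 and 107 to 102. The change with fraction is thus not read as a result about synonymous changes. Both MBT2 calls were lost when sites within 5 bases of a read end were left out, with odds ratios by the exact test of 0.426 (adjusted p = 0.275) and 0.468 (adjusted p = 0.684), the latter turned in direction. With a fraction limit of 10%, the A>G call was lost too (1.92, exact test, adjusted p = 0.380).

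The place of the alternative base in its read set apart many of the low-fraction members from the high-fraction ones, but not all. The caller gives for each site the median distance of the alternative allele from the read end. Below 20% of reads, this distance was at most 5 bases, a limit set with the distances in view, at 173 of 280 LM8 members (61.8%) and 166 of 228 MBT2 members (72.8%). Over all private substitutions below 20%, the same limit took 59.3% in LM8 and 65% in MBT2, so the share is not read as a result about synonymous changes. At 20% or more it was at most 5 bases at 1 of 26 LM8 and 3 of 89 MBT2 members. The other low-fraction members, 107 in LM8 and 62 in MBT2, lay at medians of 20 and 18.5 bases. High-fraction members lay at 17 and 18 bases. At 112 LM8 and 104 MBT2 members the median distance was 1 base.

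**Figure D4:**
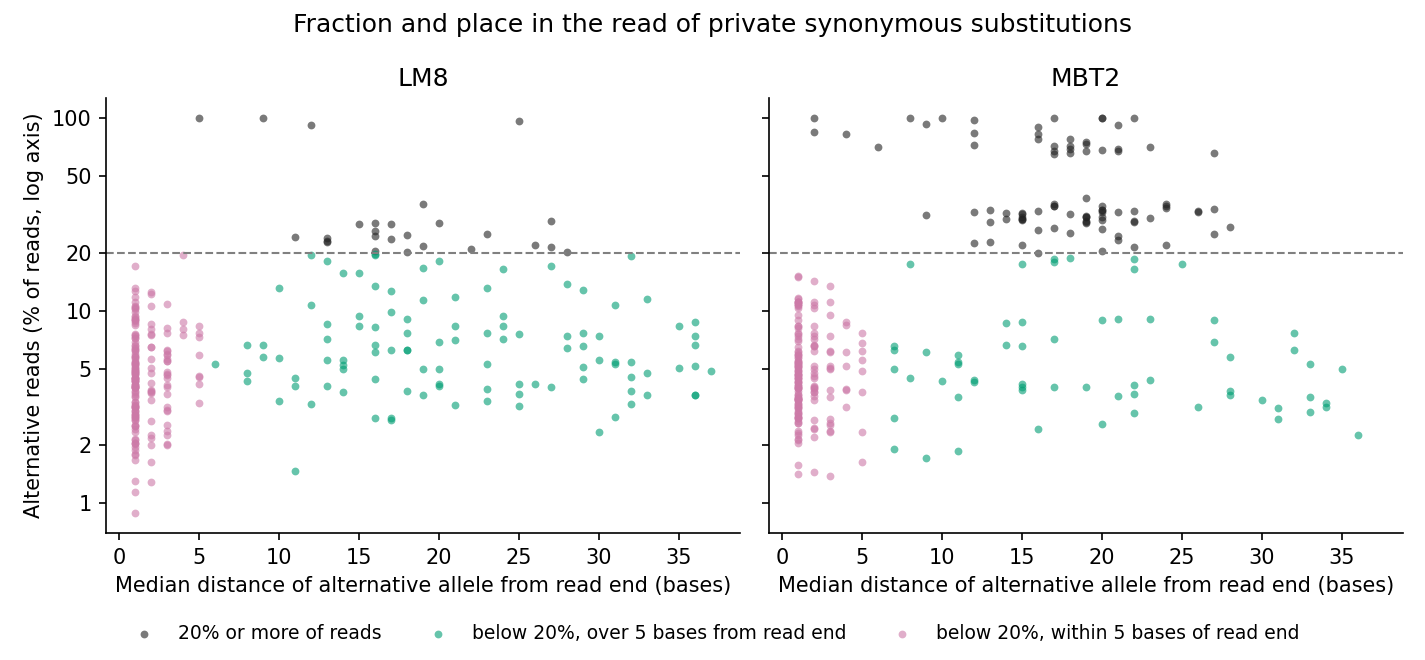
Alternative reads as a percent of reads (log axis, vertical) against the caller's median distance of the alternative allele from the read end in bases (horizontal), for private synonymous substitutions of LM8 and MBT2; the dashed line marks 20%. Most low-fraction sites stand at distances of 1 to 5 bases, and high-fraction sites mostly between 10 and 30 bases, in 2 bands in MBT2.

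Near the read end, the alternative allele came almost wholly from reads antisense to the gene. Antisense here is the direction in which a read aligned, and not the strand of the RNA it came from. In LM8 949 of 1002 alternative reads at those 173 sites were antisense (94.7%), against 64.8% of reference reads, and in MBT2 1002 of 1050 (95.4%) against 66.5%. All alternative reads were antisense at 143 of 173 and 132 of 166 such sites. At 20% of reads or more the antisense share was 42.1% of alternative and 42.0% of reference reads in LM8, and 42.8% and 45.4% in MBT2. Read-end sites did not carry low base qualities: the caller's median base quality of the alternative allele was 37 in LM8 and 40 in MBT2, beside 33 and 32 for the reference allele. The changed base lay within 3 bases of an exon edge at 15 of 172 matched LM8 and 10 of 164 matched MBT2 read-end sites, and at 0 of 103 and 0 of 61 low-fraction sites farther inside reads. The part of these reads in the counts of low-fraction members was not tested.

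Named read-end members show the pattern read by read. Supt6, a histone chaperone of transcription elongation, had 3 private synonymous changes in LM8, at aspartate 189, glutamate 677 and glycine 1437, with medians of 3, 1 and 3 bases from the read end. At glycine 1437 (chromosome 11, position 78102921, exon 31) the alternative base stood in 7 of 119 reads, 6.45% and 5.26% of the libraries, all antisense. Canx, the chaperone calnexin, had 6 of 143 reads at alanine 573 (3.66% and 4.92%), again all antisense and 2 bases from the read end. In MBT2, Trpm7, a channel with a kinase domain, had 2 such sites, at cysteine 36 with 6 of 52 reads and at aspartate 1156 with 3 of 28 reads, all antisense and 1 base from the end. Axl, a receptor tyrosine kinase, had a T>G change in the codon of glycine 606 in 20 of 1402 reads (1.61% and 1.25%), 17 of them antisense.

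The 5 deepest low-fraction members of each line included sites near read ends and sites farther inside. In LM8, Eif3e, a translation initiation factor subunit, had 9 of 697 reads at aspartate 306 and Idh3g, a subunit of mitochondrial isocitrate dehydrogenase, 12 of 529 at asparagine 387, both 2 bases from the read end. Scaf11, a splicing regulator, stood at 23.1% and 15.4% of reads at threonine 1160, 101 of 520, with a median of 12 bases from the end. In MBT2, Anapc1, the largest subunit of the anaphase-promoting complex, had 11 of 795 reads at serine 839, 10 of them antisense, 3 bases from the end. Brix1, a ribosome assembly factor, stood at 16.6% and 19.2% at isoleucine 309, 216 of 1205 reads, 17 bases from the end. Low fractions also occurred farther inside reads: Snrnp40, a spliceosome component, had 1.46% of 478 LM8 reads at 11 bases from the end, Derpc 2.42% of 579 MBT2 reads at 16 bases, and Appl1, given below, 1.92% of 572 at 7 bases. Fraction and distance from the read end thus did not split these sites into 2 kinds.

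Read-end members also shared a sequence that the rule did not use: T was rare in the 3 bases that follow the changed base. None of these bases was T at 282 of 336 read-end sites over both lines (83.9%, 79.6 to 87.7), at 90 of 164 low-fraction sites farther inside reads (54.9%, 46.9 to 62.7) and at 59 of 115 high-fraction sites (51.3%, 41.8 to 60.7). For G>A at read ends it was 107 of 116 (92.2%). Over G>A, A>G and T>C together, 286 read-end sites had a purine in 79.0% of cases at position 2 after the change and in 76.2% at position 3, where possible synonymous changes of the same classes have 53.3% and 50.5%. The classes differed: at position 2 the share was 91.2% for A>G and 92.0% for T>C but 60.3% for G>A, where possible changes have 52.5%. All 3 following bases were purines at 64.9% of A>G, 61.1% of T>C and 25% of G>A read-end sites. At high fraction these shares were 11.1% of 27, 10% of 10 and 30% of 20 sites. At low fraction farther inside reads they were 17.65% of 17, 7.14% of 14 and 50% of 38. At high fraction the share at position 2 was 50.9% of 57 sites. The printed windows of Rbm39, Mcm4, Supt6 and Canx show it, with G and A frequent after the changed base. Sites of a line are not replicates, so these shares are a description, and no test was made.

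**Figure D5:**
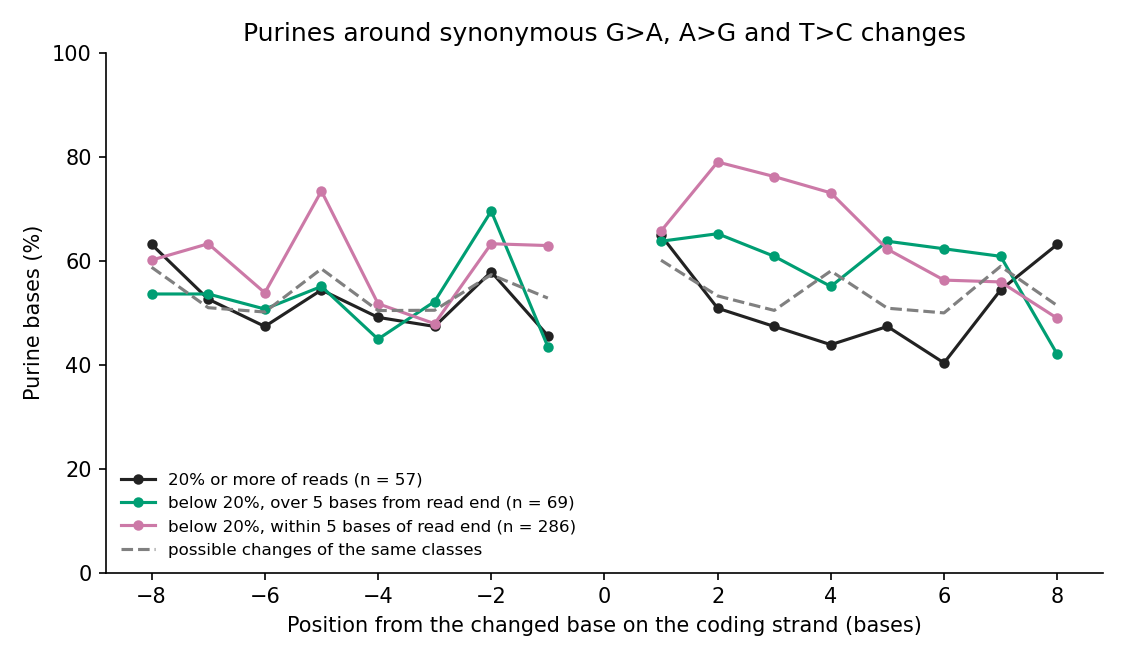
Share of purine bases (percent, vertical) at 8 positions on either side of the changed base on the coding strand (horizontal, in bases) for synonymous G>A, A>G and T>C, by fraction and distance from the read end; the dashed line is the share at all possible changes of the same classes. The read-end curve reaches 79.0% at position 2 and 76.2% at position 3, where the high-fraction curve has 50.9% and 47.4%.

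A second sequence pattern was seen at G>A changes farther than 5 bases from read ends. The run searched was GAAAA, with its G the changed base, on the coding strand only. This run was not among the comparisons planned beforehand, so its shares are a description. It was present at 18 of 38 private low-fraction G>A sites farther than 5 bases from read ends (47.4%, 31.0 to 64.2), at 1 of 116 read-end sites (0.862%) and at 0 of 20 high-fraction ones (which allows up to 16.8%). Of all possible synonymous G>A changes in the coding sequences, 0.775% have it. In MBT2 it was 14 of 19 (73.7%, 48.8 to 90.8) and in LM8 4 of 19 (21.1%, 6.05 to 45.6); the difference between lines was not tested. The complementary run, TTTTC with its C the changed base, stood at 0 of 57 low-fraction C>T sites away from read ends. Vcp and Appl1 of MBT2 show the level of such changes. Vcp, an ATPase that extracts proteins from complexes and membranes, had its G>A change in the codon of arginine 424 in 5 of 227 and 3 of 239 reads of the libraries. Appl1, an adaptor of early endosomes, had it at arginine 171 in 1.32% and 2.60%, 11 of 572 reads. Both stand before a run of A longer than the one searched, as printed above, and Vcp was chosen after its values were seen.

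The 16 shared members repeated these patterns. Of them 12 were G>A, 9 of which had G before the changed G, and 14 of 16 lay below 10% in both lines, from 0.816% to 9.62%. In 5 of the 12 the alternative base was within 5 bases of the read end in both lists, and the other 7 were farther inside in both. GAAAA was present at 7 of the 12. Mki67, the proliferation marker Ki-67, has internal repeats and carried the change at 2 glycines whose printed windows are nearly the same. At glycine 1388 (chromosome 7, position 135300869, exon 12) it was 3.79% and 2.08% of LM8 and 3.54% and 3.43% of MBT2 reads. At glycine 2215 it was 3.32% and 3.32% of LM8 and 3.58% and 3.10% of MBT2 reads, so lines and libraries overlapped at both. Ncor1, a nuclear receptor corepressor, had 4.20% of 238 reads in LM8 and 3.52% of 284 in MBT2. Rpf2, a ribosome assembly factor, had 5.31% of 245 and 4.17% of 216.

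Shared members near read ends were at like levels. Mcm4, a subunit of the replicative helicase, had 2.48% of 323 reads at arginine 827 in LM8 and 2.72% of 367 in MBT2. Rbm39, a splicing factor, had 3.67% of 218 and 4.72% of 254 at alanine 364. Trpc4ap, an adaptor of a ubiquitin ligase, had 3.64% of 165 and 4.37% of 206. All alternative reads at these 3 sites were antisense in both lines.

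Of the 16 shared members, 1 differed between the lines by Fisher's exact test on reads with adjustment over all shared variants, of which 7.3% were called (5.65% of shared substitutions). In Tuba1a, an alpha-tubulin, the C>T change in the codon of threonine 41 (chromosome 15, position 98849453, exon 2) stood in 99 of 830 and 95 of 865 reads of the LM8 libraries and in 136 of 428 and 144 of 456 of the MBT2 libraries. That is 11.4% of LM8 and 31.7% of MBT2 reads, and the libraries of the lines did not overlap (adjusted p = 4.44e-32 by Fisher's exact test). Tubulin genes are close copies of each other, so reads may come from another copy and the site is uncertain. The pseudogene Rplp2-ps1 is uncertain for the same reason; it had 87.0% of 146 reads in LM8 and 74.9% of 191 in MBT2 (adjusted p = 0.0739 by Fisher's exact test).

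Azin1, an inhibitor of the antizyme that limits polyamine synthesis, is a known target of A-to-I editing, in which an adenosine of the RNA is read as G. Its shared change was A>G in the codon of glutamate 366 (chromosome 15, position 38491857, exon 11), in 1.22% and 1.38% of LM8 reads and 0.835% and 0.799% of MBT2 reads. In all, 8 of 619 and 10 of 1225 reads had G, at a median of 26 and 20 bases from the read end, and the lines did not differ by Fisher's exact test (adjusted p = 0.951). It had the lowest fraction of the 16 in both lines. Whether this position is an edited one was not tested.

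By codon, 296 of 306 private LM8 members and 307 of 317 MBT2 members changed the last base, and 10 in each line the first base, of leucine or arginine codons. Glycine codons led in both lines, with 45 in LM8 (14.7%) and 43 in MBT2 (13.6%), while glycine makes up 6.44% of codons of the sequences read. Any last base gives glycine, so its codons allow more synonymous changes than those of many amino acids. The codon share was not weighted for this. The most frequent changes over both lines were GGG to GGA (25), CGG to CGA (24), GAT to GAC (22) and GGT to GGC (21). Of the CGG to CGA changes 21 were read-end sites, and of GAT to GAC 20. C>T and G>A together fell in a CG pair at 33 of 135 LM8 sites (24.4%) and 23 of 131 MBT2 sites (17.6%), where possible changes have 9.46%.

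Changes that took G or C away were slightly more frequent than those that added one, 151 against 131 in LM8 and 156 against 129 in MBT2. The balance was opposite in the low-fraction sets: read-end sites lost G or C at 66 and gained it at 95 in LM8 (68 and 87 in MBT2), while sites farther inside reads lost it at 70 and gained it at 25 (39 and 14). The new codon was the rarer of the pair, by its use in the sequences read, at 153 of 306 LM8 members (50%) and 190 of 317 MBT2 members (59.9%). At 20% of reads or more it was 69.2% in LM8 and 69.7% in MBT2. The share among possible changes is not given, and the classes differ by fraction, so no leaning towards rare codons is read from this. Members lay at a median of 59.9% of the protein's length in LM8 and 56.2% in MBT2.

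Few members fell in the 7 gene lists looked at. The lists held 8 private synonymous changes in 7 genes in LM8 and 14 in 13 genes in MBT2. In LM8 all 8 were at low fraction, as were 280 of its 306 private members. In MBT2, 9 of the 14 stood at 20% of reads or more, beside 89 of its 317 private members. Over all genes with a listed variant, 8.13% in LM8 and 7.83% in MBT2 had a private synonymous change. Of chromatin regulators with a variant, 3 of 25 had one in LM8 and 3 of 27 in MBT2; of cancer drivers 2 of 23 and 2 of 28; of cell cycle genes 1 of 21 and 2 of 17; of DNA repair genes 0 of 13 and 2 of 19. Counts this small do not set a list apart from the rest.

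In LM8, the highest of these was Kmt2d, a histone H3 methyltransferase, with 9 of 67 reads at arginine 5042 (13.9% and 12.9%). Kmt2d also had 4 of 77 reads at glycine 2708. The other LM8 members were Ccnb1, Tet3, Canx, Daxx, Fat1 and Stag2, from 1.64% to 6.35%. Stag2, a cohesin subunit, was the deepest, with 8 of 489 reads at asparagine 1223, 7 of them antisense and 2 bases from the read end.

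In MBT2, the 8 highest of the 14 stood at 28.6% of reads or more. Jak2, a kinase of cytokine receptors that carries interferon signals, had an A>T change in the codon of alanine 276 (chromosome 19, position 29259930, exon 6) in 76.2% and 74.4% of reads, 106 of 141. Cenpf, a kinetochore protein, had 2 changes in different bands: valine 2451 (chromosome 1, position 189384926, exon 13) in 61.6% and 74.4% of reads and alanine 2740 in 26.7% and 35.9%, of 344 and 349 reads in all. Mcm3, a helicase subunit, had 33.2% of 373 reads at threonine 164 (28.5% and 38.3%). Mre11a, a nuclease of double-strand break repair, had 32.9% of 252 reads at threonine 678 (29.8% and 35.9%). Col5a1, a fibrillar collagen, had 32.5% of 662 at glycine 919 (34.8% and 30.4%) and Asxl1, a chromatin regulator, 28.6% of 147 at leucine 728 (20% and 36.4%). Eef1a1, given above, completes the 8. Library 2 was the higher one at the Cenpf, Mcm3, Mre11a and Asxl1 sites, with the widest gap at Asxl1. No site passed the test between duplicates, which does not show equal fractions.

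Several synonymous changes in 1 gene were rare. In LM8, 20 genes had at least 2, with Sfi1 and Supt6 at 3 each, and in MBT2 9 genes had 2 and none more. Sfi1, a centrosomal protein, had 6 of 52, 3 of 32 and 2 of 32 reads at 3 codons, at medians of 18 to 33 bases from the read end; the mouse genome holds copies of it, so its sites are uncertain. Aph1a, a subunit of gamma-secretase, had its 2 changes at adjacent codons, glutamine 240 and arginine 241, with 4 reads each, all antisense. Both changes of Cherp, a spliceosome-associated protein, and both of Atp2a2, the calcium pump of the endoplasmic reticulum, lay 1 or 2 bases from read ends. In MBT2, Gm2000 had 1 change at 92.1% of 38 reads and 1 at 5.88% of 68, and is uncertain, as a predicted gene whose reads may come from a copy.

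Chromosome 11 held the largest count of LM8 members, 40 (13.1%), beside 8.40% of all private LM8 substitutions. Of the 26 high-fraction members it held 7 (26.9%), beside 10.2% of all private LM8 substitutions of 20% or more. In MBT2 it held 26 (8.20%), beside 9.36%. Chromosomes 1 and 2 held 27 (8.52%) and 26 (8.20%) members in MBT2, beside 7.76% and 6.98% of all private MBT2 substitutions. At 20% of reads or more they held 11 (12.4%) and 14 (15.7%) members, beside 7.38% and 8.94% of all private MBT2 substitutions. In LM8 they held 10 and 17, with 0 of the 26 at that level, where they hold 5.65% and 6.78% of all private substitutions of 20% or more. Differences between chromosomes were not tested.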

How the data were processed

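Variants were read from RNA of 2 mouse cell lines in 2 libraries each. The deposited unit is reads per allele and library, whole-number counts in 1 list per line in variant call format 4.2, per the file headers. The authors called each line's libraries together with Mutect 2.2 and no normal sample, filtered the calls with FilterMutectCalls, and annotated them with SnpEff 5.1d and GRCm39 database 105, per the file headers. The headers give GATK 4.1.5.0 and the submitters' processing notes GATK 4.3.0. The notes also name bcl2fastq 2.17.1.14, cutadapt 1.9.1 and STAR 2.7.9a, without roles. The treatment of spliced reads is not stated.

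Fractions were alternative over reference plus alternative reads, summed over libraries; the lowest depth of a listed site was 14 reads. Shares have exact Clopper-Pearson 95% intervals. Tests were Fisher's exact or exact binomial, two-sided; p-values were adjusted per family after Benjamini-Hochberg and called under 0.05. Coding-strand classes came from the annotated codons, and flanking bases, codon use and possible changes from GENCODE M21 transcripts. The steps ran in Python 3.11.15 with scipy 1.17.1, numpy 2.4.6, matplotlib 3.10.9 and pandas 2.3.3. Only the test between duplicates and the test of class shares were tried on simulated data, with large shifts.

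The members, gene lists and limits were chosen with earlier results of these data known, and the read-end limits after the values were seen. Sites named were the 10 deepest shared, and in each line the 10 deepest at 20% or more, the 5 deepest below, up to 8 in the gene lists by fraction, up to 5 genes with the most sites, and 3 on either side of 20%. Names outside this rule are marked as picked with their values known. Alternatives tried were depth minimums, alternative reads in both libraries, shared sites kept, 1 site per gene, resource alleles left out, the caller's own fraction, other fraction limits, distance from the read end and each library left out. A site on chromosome 18 is given without sequence or values, and some shared sites are given by counts only.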

Additional observations from a re-analysis of the deposited data

How the results depend on the processing

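No paired analysis was possible because each line has 1 joint list, the tests count variants with reads summed over libraries, and libraries of different lines share only a number. The higher share of MBT2 members at 20% or more kept its direction and passed under all 13 alternatives, with odds ratios from 2.27 to 14.9, and the ratio of private counts ranged from 0.853 to 0.974 over 10. The missense to synonymous odds ratio between fractions in LM8 turned to 0.503 with a fraction limit of 0.3, and that between lines at high fraction to 0.964 with a limit of 0.1; neither passed in any setting. Of the 6 strand-partner tests 2 passed; 1 did with a fraction limit of 0.1, and 0 did without sites within 5 or within 10 bases of a read end. There the MBT2 odds ratio of A>G against T>C turned to 0.468 and 0.750. These read-end settings were added after seeing the data; they leave fewer low-fraction sites, and the cause of the turn was not tested. Depth limits single sites: a low-fraction member had a median of 5 alternative reads in either line.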
